A study of Mus musculus with 12 samples.

Results

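The transcriptomes of 2 lines of mouse embryonic fibroblasts were compared after each had received back the cell death gene it lacked. One line carries the genotype Fadd -/-, Mlkl -/- and had Fadd re-expressed ectopically (Fadd-restored), and the other carries Casp8 -/-, Mlkl -/- and had Casp8 re-expressed ectopically (Casp8-restored). They make up 6 of the 12 RNA sequencing libraries of the study, chosen by these labels alone, with 3 libraries a line, which the labels describe as independent cultures. They are called F1, F2 and F3 for the Fadd-restored line and C1, C2 and C3 for the Casp8-restored line, by replicate number. The other 6 libraries are from the same lines with an empty vector and are called Fk1 to Fk3 (Fadd/Mlkl knockout) and Ck1 to Ck3 (Casp8/Mlkl knockout). Both lines lack Mlkl, were immortalised with SV40 large T antigen, and were left untreated and harvested 24 h after plating. The sources used here do not give the age of the embryos or say whether a line is 1 clone. Each genotype is represented by 1 line, so a difference that comes from the line of origin and a difference that comes from which gene was put back cannot be told apart within the restored libraries.

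FADD is the adaptor that joins death receptors to caspase-8, and caspase-8 is the protease that starts apoptosis from these receptors and restrains necroptosis through RIPK1 and RIPK3. MLKL is the pore-forming executioner of necroptosis, and ZBP1 is a sensor of Z-form nucleic acid, induced by interferon, that can engage RIPK3. Fibroblasts also keep a positional identity: the homeodomain genes of the Hox clusters and other patterning regulators stay on or off according to where in the embryo a fibroblast came from, and this is commonly retained in culture.

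Depth was between 33918359 and 59388559 expected counts per library. It came to 43774047, 39848303 and 46272072 in F1 to F3 and 50922210, 59388559 and 50439711 in C1 to C3. Levels are given as CPM, counts scaled by library size, and are not corrected for gene length, so they compare libraries and not genes. A gene is called where the adjusted p of edgeR's quasi-likelihood test, over all 16396 genes tested, is under 0.05; differences are log2, Fadd-restored minus Casp8-restored, with a standard error (SE). P-values measure the spread between cultures of 1 line and not between lines. Library C1 stood apart from C2 and C3. On the first principal component of the 6 libraries, which held 64.5% of the variance, C1 lay at 18.1 against 100.2 and 91.3 in C2 and C3 and -90.2, -66.6 and -52.7 in F1 to F3. Of the called autosomal genes, C1 was the library of its line nearest to the Fadd-restored libraries in 730. The summed level of 4 Y-linked genes was 130.9 CPM in C1, 286.1 in C2 and 265.7 in C3, and 0 in F1 to F3. Among the knockout libraries it was 52.69 CPM in Ck1, 240.6 in Ck2, 250.6 in Ck3 and at most 0.0364 in Fk1 to Fk3. The part of this in the results was not tested. Isg15, Oas1a, Oas3, Ddx60, Ifit1, Igfbp4, Lama5, Loxl1, Tagln, Hoxb3, Col1a1, Vim, Sparc and Dcn fall outside the rule for naming genes and were picked with their values in view.

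Of 15846 autosomal genes tested, 1007 (6.35%) were called between the restored lines. The Fadd-restored line was higher for 473 (2.98%) and lower for 534 (3.37%). The differences were large: 406 of the higher and 444 of the lower genes differed at least 2-fold, and 88 and 112 at least 32-fold. The median log2 difference was 2.64 among those called higher, -2.72 among those called lower and -0.01 over all autosomal genes tested. Groups did not overlap in 995 of the 1007, against 26.9% of the genes tested. The count depended on single libraries. Without C1 it was 1006 higher and 1175 lower, and 92.8% of the 1007 were called again in the same direction. It came to 235 higher and 223 lower without F1, 173 and 163 without F2, 265 and 247 without F3, 108 and 183 without C2, and 111 and 198 without C3. With the replicate number as a block over 12 libraries it was 749 higher and 738 lower, and with the block on the restored pairs 468 and 460. With the 6 restored libraries fitted alone it was 371 higher and 396 lower, and 62.7% of the 1007 were called again in the same direction.

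**Figure D1:**
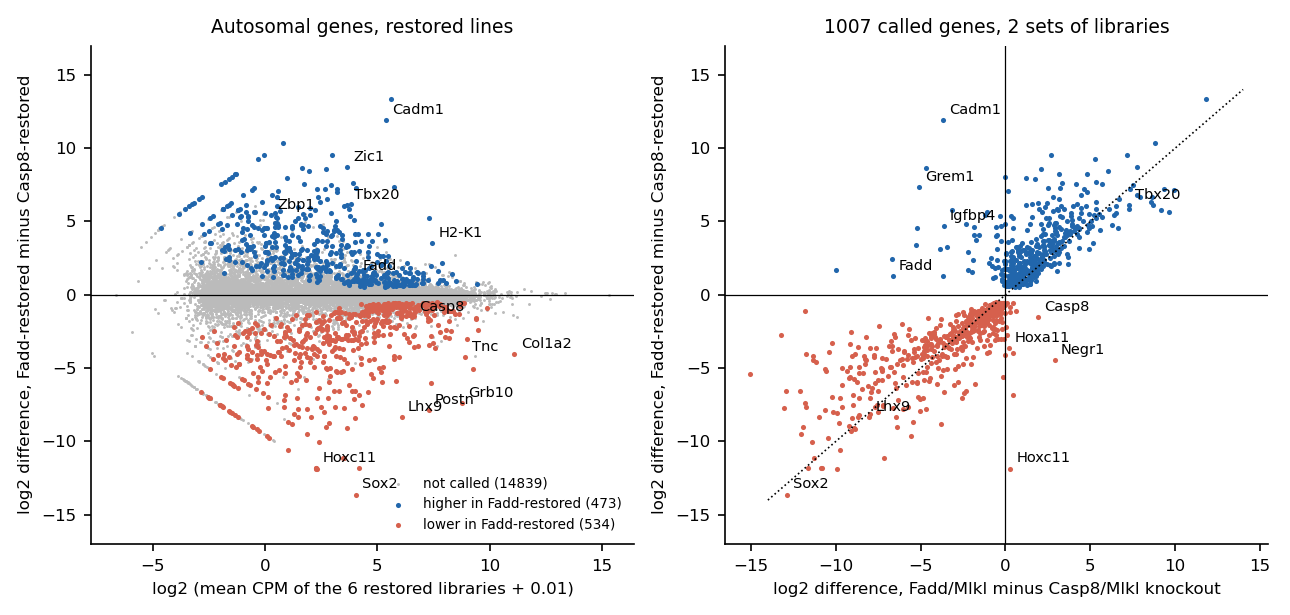
Left, each point is an autosomal gene, with the log2 difference (Fadd-restored minus Casp8-restored) against the log2 mean CPM of the 6 restored libraries plus 0.01, and blue and red mark the 473 genes called higher and 534 called lower. Right, the same 1007 genes with the difference between the knockout groups on the horizontal axis and a dotted line of equal differences; 941 have the same sign on both axes, and Hoxc11, Cadm1 and Grem1 lie far from the line.

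The same 2 lines were also compared through the 6 knockout libraries, whose group means share no library with those of the restored comparison. Both comparisons came from 1 fit over the 12 libraries, with the same scaling and 1 estimate of the spread, so they are not separate tests. Between the knockout groups 1633 autosomal genes (10.3%) were called. Of the 1007 genes called between the restored lines, 615 were called the same way between the knockout groups (61.1% of the first set and 37.7% of the second) and 17 the opposite way, Fadd and Casp8 among them. The share called the same way was 71.2% for genes lower in the Fadd-restored line and 49.7% for genes higher in it. Over all autosomal genes the knockout comparison itself called 1074 lower and 559 higher in the Fadd line, so these 2 shares have unlike backgrounds. The difference between the 2 contrasts was called for 124 autosomal genes (0.783%), of which 45 are among the 1007. These shares concern the same 2 lines and say nothing of other lines of the same genotypes.

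The restored genes had different levels against the intact copy in the other line. Fadd stood at 26.1, 19.1 and 25.8 CPM in F1 to F3 and at 8.65, 10.6 and 9.71 in C1 to C3, where it is the cells' own gene. The groups did not overlap, and Fadd was 1.29 higher on the log2 scale in the Fadd-restored line (SE 0.31, adjusted p = 0.0351). Leaving out any 1 of the 6 libraries ended this call (adjusted p = 0.0533 to 0.125) and with the block on the restored pairs (adjusted p = 0.0602). Fadd was between 0.0364 and 0.176 CPM in the Fadd/Mlkl knockout libraries. Casp8 stood at 46.8, 54.6 and 45.0 CPM in F1 to F3 and at 67.7, 172.1 and 182.2 in C1 to C3. C1 was the lowest of its line, and no Casp8-restored library came down to the level of the other line. The difference was -1.53 (SE 0.30, adjusted p = 0.0148), and the call was lost without F1, F2, F3, C2 or C3 (adjusted p = 0.0564 to 0.072). Casp8 reads in the Casp8/Mlkl knockout libraries were between 10.4 and 12.4 CPM.

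Among the partners of FADD and caspase-8, Zbp1 passed the main test and Ripk1, Ripk3 and Mlkl did not. Zbp1 was at 0.235, 2.99 and 3.78 CPM in F1 to F3 and at 0.136, 0.0179 and 0 in C1 to C3. F1 lay close to C1, and the groups did not overlap. The log2 difference was 5.43 (SE 1.37, adjusted p = 0.0409). The adjusted p was 0.0576 with the block over 12 libraries, 0.115 with the block on the restored pairs, and 0.0992 to 0.174 without F2, F3, C2 or C3. It was 0.253 in limma-voom and 0.069 with the 6 restored libraries fitted alone. Between the knockout groups Zbp1 was also higher in the Fadd line, by 5.19 (adjusted p = 0.0188), with 66.1, 7.28 and 13 CPM in Fk1 to Fk3 and 0.30, 0.874 and 1.2 in Ck1 to Ck3. Ripk3, the kinase that activates MLKL, was at 42.9, 55.9 and 52.5 CPM against 10.7, 35.7 and 31.5, again with C1 the lowest (0.96, SE 0.35, adjusted p = 0.146; 0.0487 with the block on the restored pairs). Ripk1, the kinase upstream, differed by -0.01 (SE 0.14, adjusted p = 0.974), and its sign turned under other scalings. Reads of Mlkl remained in both lines at 5.27 to 15.9 CPM, with a difference of 0.74 (SE 0.41, adjusted p = 0.334).

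Of 26 genes of death receptor signalling and necroptosis tested, 3 were called higher and 1 lower, with a median of 0.00, beside 2.98% higher and 3.37% lower over all autosomal genes. The list gave 1 higher and none lower without F1, 2 and 1 without C1, and none without F2, F3, C2 or C3. Fadd and Zbp1 are among those higher, and Casp8 is the one lower. Of 6 other caspases, gasdermins and related genes tested, 3 were called higher and none lower, with 1 higher without F1, 4 without C1 and none without F2, F3, C2 or C3. They are Gsdmd, the pore-forming gasdermin D (1.29, SE 0.31, adjusted p = 0.0328), Ninj1, a mediator of plasma membrane rupture (0.80, SE 0.17, adjusted p = 0.0227), and Casp4, an inflammatory caspase (3.50, SE 0.92, adjusted p = 0.0474). Ninj1 was at 26.6, 28.7 and 25.6 CPM in F1 to F3 and 19.3, 14.3 and 12.9 in C1 to C3, with no overlap. For Casp4, at 0.342, 2.17 and 3.08 CPM against 0.369, 0.0179 and 0.103, F1 lay under C1 and the groups overlapped. The call of Casp4 was lost with either block (adjusted p = 0.058 and 0.115). Each of these 3 calls was lost without F2, C2 or C3 (adjusted p = 0.07 to 0.19), those of Gsdmd and Ninj1 also without F1 or F3 (0.0539 to 0.0904), and that of Casp4 without F3 (0.126).

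Among the Hox genes, those of the Hoxb cluster differed together between the restored lines. Of the 9 Hoxb genes tested, 8 were called higher in the Fadd-restored line and none lower, beside 2.98% and 3.37% of all autosomal genes. Hoxb3 had an adjusted p of 0.0545. The median log2 difference over the 9 was 7.27, or 6.70 with genes near 0 counts set to their bounds, against -0.01 over all autosomal genes. Hoxb13, the end gene of the cluster and a marker of posterior position, was at 41.9, 30.7 and 17.4 CPM in F1 to F3 and at 0.428, 0 and 0.0206 in C1 to C3 (7.63, SE 1.72, adjusted p = 0.0276). Hoxb9 was at 37.5, 36.8 and 25.6 against 0.603, 0 and 0.0206 (7.31, SE 1.81, adjusted p = 0.0389; 0.0516 with the block on the restored pairs). Hoxb7 was at 10.9, 11.7 and 17.2 against 0.0972, 0 and 0 (8.57, SE 1.90, adjusted p = 0.0256). In all 3 genes C1 held the highest level of its line and still lay far under the lowest Fadd-restored library. Hoxb4 (5.97, adjusted p = 0.0114), Hoxb8 (7.27, adjusted p = 0.025) and Hoxb5 were also called, and Hoxb5, with 0 counts in C1 to C3, was at least 102-fold higher. The number called was 1 without F1, 2 without F2, 4 without F3, 8 without C1 and 0 without C2 or without C3.

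Between the knockout groups none of the 9 Hoxb genes was called, with a median of 2.67 and 1 library apart. Hoxb9 was at 26.9, 28.2 and 26.5 CPM in Fk1 to Fk3 and at 14.2, 0.115 and 0.146 in Ck1 to Ck3. The mean log2 CPM of the 9 genes was 1.496 in Ck1 and -3.32 and -3.66 in Ck2 and Ck3, against 2.45 to 3.04 in Fk1 to Fk3. In the restored libraries it was 3.17, 2.85 and 2.88 in F1 to F3 and -2.35, -4.31 and -3.66 in C1 to C3.

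The other clusters gave calls in both directions, where 3.37% of all autosomal genes were lower and 2.98% higher. Of 11 Hoxa genes, 2 were called and both were lower in the Fadd-restored line. Hoxa11, a limb and posterior regulator, was at 3.50, 2.00 and 2.54 CPM against 40.3, 29.2 and 29.2 (-3.62, SE 0.24, adjusted p = 3.73e-05). Hoxa7 was at 5.70, 7.88 and 8.88 against 19.2, 18.6 and 18.6 (-1.33, SE 0.22, adjusted p = 0.00684). Both calls held without any 1 library. Of 9 Hoxc genes, Hoxc11 was lower and Hoxc6 higher. Hoxc11 had 0 counts in F1 to F3 and 9.63, 10.2 and 9.47 CPM in C1 to C3, at least 438-fold higher in the Casp8-restored line (adjusted p = 1.73e-05), and this held without any 1 library. Hoxc6 (1.38, SE 0.34, adjusted p = 0.0366) lost its call without any 1 of the 6 libraries (0.0642 to 0.118) and with the block on the restored pairs (0.0594). Hoxd8, the only Hoxd gene tested, was at 0.534, 1.04 and 1.43 CPM against 0, 0.0179 and 0 (6.80, SE 0.84, adjusted p = 0.00327).

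**Figure D2:**
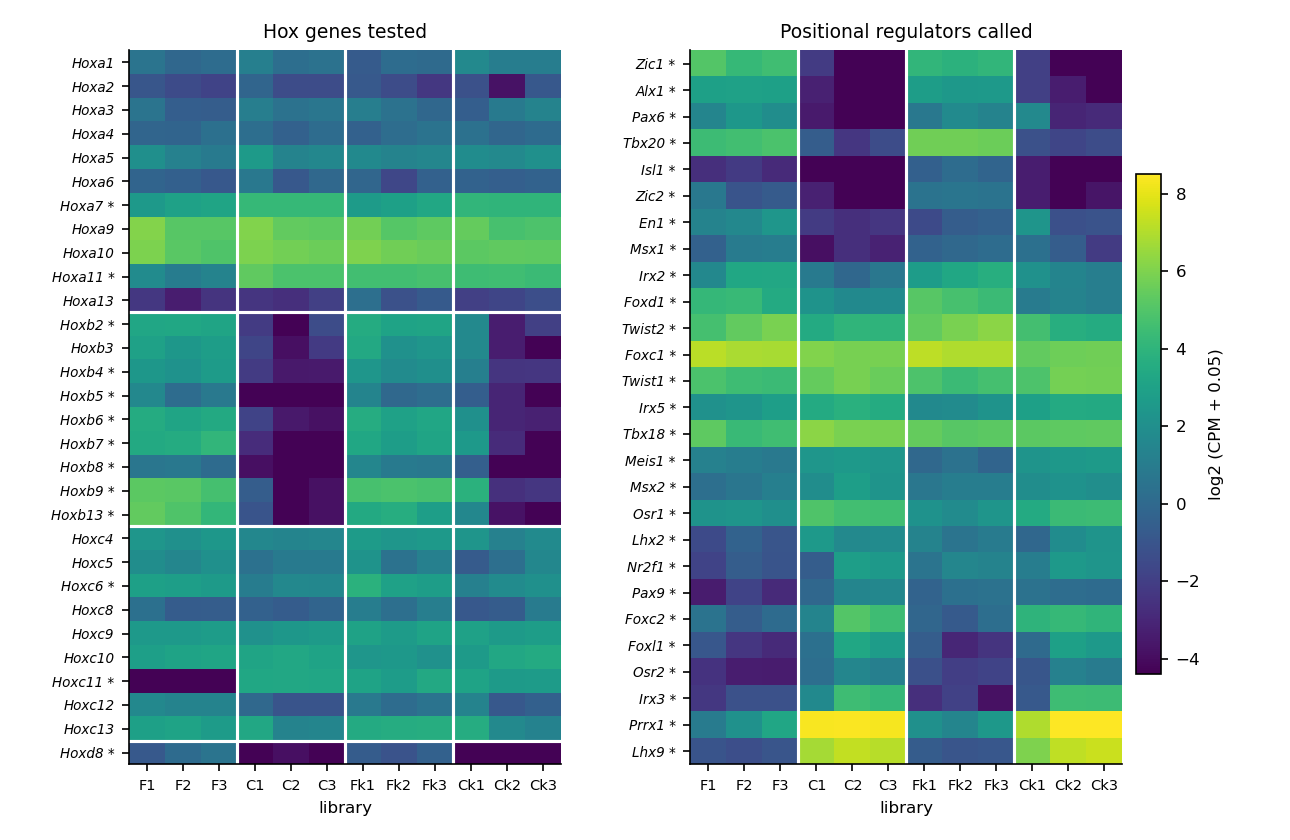
Log2 (CPM + 0.05) in all 12 libraries (F and C restored, Fk and Ck knockout) of the 30 Hox genes tested, in the order of each cluster, and of the 27 called positional regulators; an asterisk marks an adjusted p under 0.05 between the restored lines. The Hoxb block is dark in C1 to C3, Ck2 and Ck3 and brighter in Ck1, and Hoxc11 is dark in F1 to F3 alone.

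Positional and mesenchymal transcription factors outside the clusters were called in both directions: 12 higher and 15 lower of 61 tested, beside 2.98% and 3.37% of all autosomal genes. The median over the 61 was -0.36. Lhx9, a LIM homeodomain factor of limb and gonad mesenchyme, was at 0.427, 0.361 and 0.456 CPM in F1 to F3 and 108.4, 160.1 and 139.5 in C1 to C3 (-8.35, SE 0.44, adjusted p = 1.24e-05). Prrx1, a marker of limb and craniofacial mesenchyme, was at 1.92, 4.29 and 9.25 against 328.6, 345.6 and 318.0 (-6.00, SE 0.69, adjusted p = 0.00107). Osr1, a regulator of mesoderm and connective tissue, was at 4.63, 4.96 and 3.95 against 30.3, 24.5 and 23.7 (-2.53, SE 0.28, adjusted p = 0.00084). In each of these 3 the groups did not overlap, and the Fadd-restored libraries of Prrx1 spread more widely than those of Lhx9 and Osr1.

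Other regulators were higher in the Fadd-restored line. Tbx20, a T-box factor known from the heart, was at 21.7, 23.9 and 29.2 CPM in F1 to F3 and 0.622, 0.143 and 0.329 in C1 to C3 (6.09, SE 0.43, adjusted p = 4.77e-05). Zic1, a zinc finger factor of dorsal neural tissue and somites, was at 32.9, 18.7 and 23.1 against 0.175, 0 and 0 (8.68, SE 1.12, adjusted p = 0.00215). Alx1, a regulator of craniofacial mesenchyme, was at 7.60, 7.78 and 7.58 against 0.0583, 0 and 0 (8.45, SE 0.98, adjusted p = 0.00116). All 6 of these calls held without any 1 library and were called in the same direction between the knockout groups. Without C1 the list gave 19 higher and 17 lower. Without F2 it gave 7 and 6, without C2 6 and 8, without C3 5 and 9, and without F1 or F3 the lower count was 9.

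Sox2, a factor of neural and pluripotent cells, was absent from the counts of one line. It had 0 counts in F1 to F3 and in Fk1 to Fk3, against 28.9, 34.2 and 36.6 CPM in C1 to C3 and 14.2, 23.7 and 21.6 in Ck1 to Ck3. This made it at least 1490-fold higher in the Casp8-restored line (adjusted p = 6.21e-05), the bound being 3 counts over the group of 0, which covers counting error only. Of 6 neural and glial genes tested, Sox2 and Map2 (a neuronal microtubule protein; -3.44, SE 0.54, adjusted p = 0.00541) were called lower in the Fadd-restored line, and 4 of the list without C1. Over all autosomal genes 3.37% were lower and 2.98% higher. The glial marker Sox10 and the neuronal markers Dcx, Rbfox3 and Snap25 had 0 counts in all 6 restored libraries. The list's summed level was 227 to 304 CPM in F1 to F3 and 326 to 874 in C1 to C3. In bulk RNA, fewer cells of a type and less RNA per cell cannot be told apart.

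The sequence before Sox2 is shown because the gene was read in the Casp8 line alone. The run is the 250 bases that end just before the start RefSeq gives on GRCm38.p6, 5′ to 3′ on the gene's strand, with every CG pair in capitals. It lies at chr3:34649745-34649994 on the plus strand, and the GENCODE start used for the counts lies further downstream.
Sox2: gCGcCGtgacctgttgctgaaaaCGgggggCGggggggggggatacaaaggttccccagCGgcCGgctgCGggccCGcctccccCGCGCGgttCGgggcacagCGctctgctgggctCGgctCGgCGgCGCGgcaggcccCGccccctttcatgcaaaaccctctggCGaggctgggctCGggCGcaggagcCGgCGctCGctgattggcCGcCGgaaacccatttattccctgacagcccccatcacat
The run holds 27 CG pairs. The same length before Zic1, which was higher in the Fadd-restored line, also holds 27. Before Lhx9, which was lower there as Sox2 was, it holds 4. A count of pairs is not the ratio given next. Over windows of 300 bases, the median ratio of observed to predicted CG pairs was 0.782 for tested autosomal genes with 1 entry in the table (8115 of 15828 symbols), 0.585 for the 249 called higher and 0.74 for the 281 called lower. The median for the 38 interferon response genes with an entry, described next, was 0.269.

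Genes induced by type I interferon stood higher in the Fadd-restored line. Of 61 tested, 27 were called higher and none lower, against 2.98% and 3.37% of all autosomal genes, and 60 had a difference above 0, with a median of 2.76. Apobec3, a cytidine deaminase that restricts retroviruses, was at 18.6, 32.2 and 26.2 CPM in F1 to F3 and 5.33, 2.65 and 3.38 in C1 to C3 (2.76, SE 0.32, adjusted p = 0.00116). Trim25, a ubiquitin ligase of RIG-I signalling, was at 51.6, 83.4 and 91.8 against 9.98, 10.2 and 16.1 (2.64, SE 0.42, adjusted p = 0.00582). The calls of Apobec3 and Trim25 held without any 1 library and with both blocks. Parp14, an ADP-ribosyltransferase, was at 18.4, 64.8 and 65.9 against 5.81, 2.12 and 3.56 (3.70, SE 0.72, adjusted p = 0.0146). Oasl1, of the oligoadenylate synthetase family, was at 0.982, 2.58 and 2.02 against 0.214, 0.0896 and 0.165 (3.56, SE 0.68, adjusted p = 0.0132). For Parp14 and Oasl1, F1 was the lowest of its line and lay above C1, the highest of the other. Their calls were lost without F2, C2 or C3 (adjusted p = 0.0512 to 0.0776).

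The number of interferon genes called depended on single libraries and on the block. It was 24 without F1, 3 without F2, 6 without F3, 28 without C1, and 2 without C2 or without C3. It fell to 14 with the block over 12 libraries, 7 with the block on the restored pairs and 5 in limma-voom, and was 38 in DESeq2. The mean log2 CPM of the 61 genes was 2.48, 4.15 and 4.19 in F1 to F3 and 1.54, 0.51 and 0.72 in C1 to C3. All 3 Fadd-restored libraries lay above all 3 Casp8-restored ones, with F1 and C1 the nearest pair. In the knockout libraries it was 6.94, 5.19 and 5.18 in Fk1 to Fk3 and 1.46, 3.46 and 3.31 in Ck1 to Ck3, where 30 of the 61 were called higher in the Fadd line and none lower.

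Antigen presentation genes moved in the same direction. Of 37 genes of the class I pathway and the interferon gamma response tested, 18 were called higher and none lower (2.98% and 3.37% of all autosomal genes), all 37 were above 0, and the median was 2.71. H2-K1, a classical class I heavy chain, was at 229.5, 285.1 and 454.6 CPM in F1 to F3 and 46.8, 13.1 and 24.5 in C1 to C3 (3.52, SE 0.61, adjusted p = 0.00856). Psme2, a subunit of the proteasome activator PA28, was at 65.0, 91.9 and 95.2 against 34.3, 27.8 and 25.4 (1.53, SE 0.22, adjusted p = 0.00327). H2-Q7, a non-classical class I gene, was at 8.67, 23.1 and 35.5 against 0.778, 0.0717 and 0.144 (6.08, SE 0.97, adjusted p = 0.00617). These 3 calls held without any 1 library. H2-Q4 (3.71, SE 0.64, adjusted p = 0.0087) lost its call without C2 (0.0505). The H2-Q genes and H2-K1 are near copies of each other, and how reads were split among them is uncertain. The number called was 18 without F1, 9 without F2, 13 without F3, 21 without C1, 6 without C2, 4 without C3, and 11 in limma-voom. Between the knockout groups 21 were called higher in the Fadd line and none lower.

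**Figure D3:**
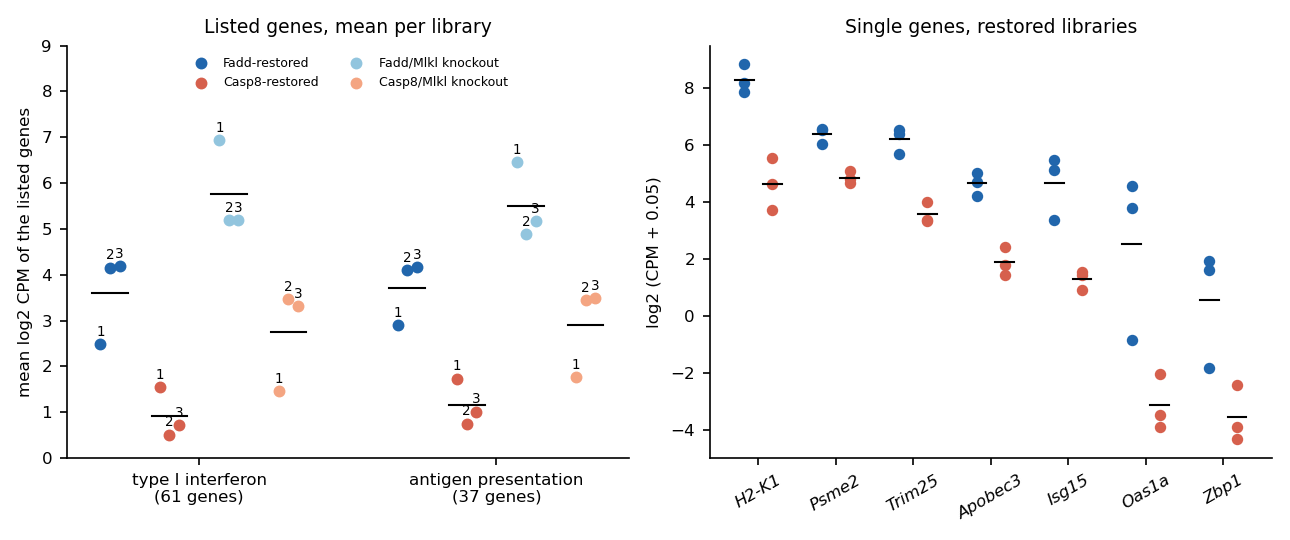
Left, the mean log2 CPM of the 61 type I interferon genes and the 37 antigen presentation genes in each library, with replicate numbers and a bar at the group mean. Right, log2 (CPM + 0.05) of 7 of these genes in the restored libraries, with Isg15 and Oas1a picked outside the naming rule; the groups do not overlap in any of the 7, and in Oas1a and Zbp1 F1 lies apart from F2 and F3.

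Of 22 nucleic acid sensing genes, 6 were called higher and 1 lower, where 2.98% and 3.37% of all autosomal genes were. The list gave 2 higher without F1 or F2, 4 higher and none lower without F3, none either way without C2, and 1 higher and none lower without C3. Ifi204, a DNA sensor of the p200 family, was at 25.02, 43.5 and 67.0 CPM in F1 to F3 and 9.49, 1.92 and 2.24 in C1 to C3 (3.31, SE 0.64, adjusted p = 0.014). Tmem173, which encodes the adaptor STING, was at 33.7, 39.9 and 25.6 against 16.6, 5.75 and 8.73 (1.67, SE 0.34, adjusted p = 0.0183). Neither gene overlapped between the lines, although C1 was the highest of its line in both. Ifi205 was also higher (1.85, SE 0.35, adjusted p = 0.0123). Zcchc3, a cofactor of DNA sensing, was lower (-2.54, SE 0.54, adjusted p = 0.0212). The 4 calls were lost without C2 or C3 (adjusted p = 0.0504 to 0.0906), that of Tmem173 also without F1 (0.0553) or F2 (0.0765) and that of Zcchc3 without F3 (0.0524). Among interferons, their receptors and JAK kinases, 2 of 10 were called, 3 without C1 and none without any other 1 library: Ifnlr1 was higher (4.66, SE 1.20, adjusted p = 0.0433) and Jak1 lower (-0.50, SE 0.13, adjusted p = 0.0471; 0.0773 with the block on the restored pairs). The adjusted p of the lost calls was 0.0558 to 0.188.

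Stretches of 60 bases from 5 interferon response promoters are shown because these genes were called higher together and each holds the letters GAAA, then any 2 bases, then GAAA, the core of the element that interferon-activated factors bind. These 5 were picked with their values in view. Sequences are from RefSeq on GRCm38.p6, 5′ to 3′ on the gene's strand, with GAAA or its complement TTTC of each match in capitals. Matches shown are on either strand of the 250 bases before each start, and they may overlap. The shares given below are for the 300 bases around each start.
Isg15: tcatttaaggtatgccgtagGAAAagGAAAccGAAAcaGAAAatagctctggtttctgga
Oas1a: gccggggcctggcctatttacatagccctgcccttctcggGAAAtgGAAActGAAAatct
Oas3: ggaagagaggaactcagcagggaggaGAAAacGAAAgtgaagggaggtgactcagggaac
Ddx60: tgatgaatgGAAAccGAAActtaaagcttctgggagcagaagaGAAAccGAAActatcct
Ifit1: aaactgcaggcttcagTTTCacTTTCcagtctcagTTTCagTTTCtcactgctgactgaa
They lie at chr4:156200857-156200916 (minus strand) for Isg15, chr5:120907526-120907585 (minus) for Oas1a, chr5:120777701-120777760 (minus) for Oas3, chr8:61928025-61928084 (plus) for Ddx60 and chr19:34640769-34640828 (plus) for Ifit1. Isg15 encodes a ubiquitin-like modifier, Oas1a and Oas3 oligoadenylate synthetases, Ddx60 a helicase and Ifit1 an RNA-binding effector. Isg15 holds 3 matches, the first 78 bases before the start of the gene. Isg15 was at 10.2, 34.8 and 44.7 CPM in F1 to F3 and 2.64, 1.85 and 2.88 in C1 to C3 (3.604, SE 0.82, adjusted p = 0.0285). The match was in 19 of 38 type I interferon promoters of tested genes and in 14 of 25 antigen presentation promoters. Among the called members it was in 8 of 16 and 4 of 12, so within these lists it was no more frequent among called genes. It was in 3.57% of all 21717 autosomal promoters, 3.13% of those of tested genes, 9.64% of those called higher (24 of 249) and 2.85% of those called lower. The promoters called higher include those of the called members of these 2 lists, so the 9.64% is not separate from them. A match describes letters in a window and not a bound site. The calls of the 5 genes were lost without C2 or C3 (adjusted p = 0.0621 to 0.18), and those of all but Oas1a also without F2 (0.0512 to 0.145). Without F3 they were lost for Ddx60, Isg15 and Ifit1 (0.0626 to 0.0965), and without C1 for Ifit1 (0.0738). The block on the restored pairs ended the calls of Oas1a (0.0578), Ddx60 (0.0504), Isg15 (0.0584) and Ifit1 (0.0774), and the block over 12 libraries that of Ifit1 (0.064).

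Of 52 matrix glycoproteins, proteoglycans and modifying enzymes tested, 9 were called lower in the Fadd-restored line and 2 higher, with a median of -0.79, while 3.37% of all autosomal genes were lower and 2.98% higher. Tnc, the matrix glycoprotein tenascin C, was at 47.9, 49.9 and 45.9 CPM in F1 to F3 and 624.7, 1077 and 1053 in C1 to C3 (-4.26, SE 0.49, adjusted p = 0.00107). Postn, the matricellular protein periostin, was at 0.79, 2.48 and 0.803 against 222.1, 399.6 and 308.0 (-7.84, SE 1.34, adjusted p = 0.00828). Fbn1, fibrillin 1 of elastic microfibrils, was at 63.0, 71.4 and 63.0 against 260.2, 427.2 and 450.8 (-2.53, SE 0.43, adjusted p = 0.00834). Matn2, an adaptor protein of the matrix, was at 16.3, 22.3 and 21.4 against 64.55, 60.03 and 68.98 (-1.69, SE 0.27, adjusted p = 0.00622). These 4 genes did not overlap between the lines, kept their calls without any 1 library and were called the same way between the knockout groups. The call of Postn was lost in limma-voom (adjusted p = 0.0739). The number called lower was 13 without C1, 5 without F2, C2 or C3, 4 in limma-voom and 16 in DESeq2, and between the knockout groups 24 were lower and 2 higher. The 2 called higher, Igfbp4 and Lama5, do not share this direction. Igfbp4, an insulin-like growth factor binding protein, was at 22.1, 12.8 and 15.2 CPM against 1.11, 0.287 and 0.535 (4.69, SE 0.82, adjusted p = 0.00906; 0.052 without C3). Igfbp4 went the other way between the knockout groups (-3.65, adjusted p = 0.0149), at 0.527, 0.218 and 0.241 CPM in Fk1 to Fk3 and 0.622, 5.64 and 6.27 in Ck1 to Ck3, and the difference of the contrasts was 8.34 (SE 1.14, adjusted p = 0.00476). Lama5, a laminin chain of basement membranes, was at 213.9, 88.5 and 90.4 against 19.9, 36.0 and 32.5 (2.15, SE 0.52, adjusted p = 0.0358). Its call was lost without any 1 of the 6 libraries (0.0545 to 0.133) and with either block (0.0554 over 12 libraries and 0.0762 on the restored pairs).

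Of 24 collagen genes, 5 were called lower and 1 higher, beside the same 3.37% and 2.98%. Col1a2, the alpha 2 chain of type I collagen, was at 393.8, 260.4 and 113.3 CPM in F1 to F3 and 6283, 3378 and 2806 in C1 to C3 (-4.02, SE 0.65, adjusted p = 0.00668), and its call held without any 1 library. Col1a1, the partner chain, was at 1670, 1301 and 475.4 against 4124, 2924 and 2121 and did not pass the test (-1.41, SE 0.64, adjusted p = 0.237). Col12a1 (-2.38, SE 0.54, adjusted p = 0.0285), Col5a1 (-1.55, SE 0.34, adjusted p = 0.0242) and Col27a1 (-3.53, SE 0.71, adjusted p = 0.0172) were lower. Col7a1, the collagen of anchoring fibrils, was higher, at 104.2, 53.03 and 49.69 CPM against 21.8, 10.1 and 10.7 (2.28, SE 0.46, adjusted p = 0.0178). The number called lower was 1 when any library but C1 was left out, and the number higher was 0 without F1, C2 or C3 and 3 without C1. The calls of Col12a1, Col5a1 and Col27a1 were lost without F1, F2, F3, C2 or C3 (adjusted p = 0.0509 to 0.0971), and that of Col7a1 without F1, C2 or C3 (0.0642 to 0.0913).

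**Figure D4:**
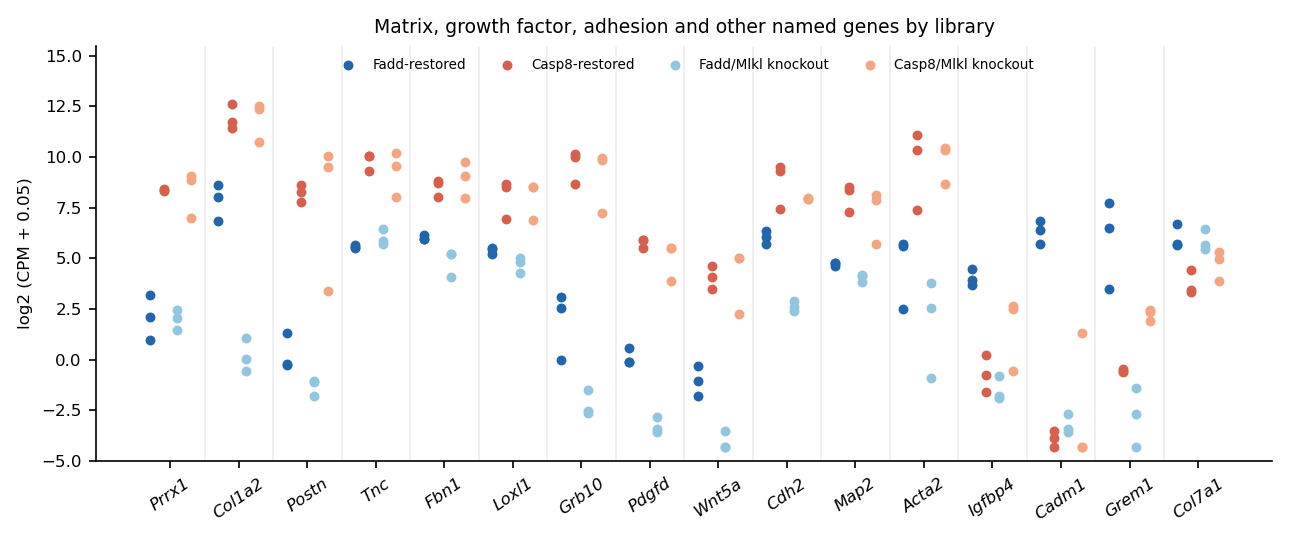
Log2 (CPM + 0.05) of 16 genes in each of the 12 libraries, coloured by group, with Loxl1 and Igfbp4 picked outside the naming rule. From Prrx1 to Acta2 all 6 Casp8-line libraries lie above all 6 Fadd-line libraries, while Cadm1, Grem1 and Igfbp4 are highest in the 3 Fadd-restored libraries.

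Growth factor ligands and receptors gave 11 lower and 3 higher of 82 tested, with a median of -0.24, against 3.37% lower and 2.98% higher over all autosomal genes. Pdgfd, a platelet-derived growth factor, was at 0.875, 1.47 and 0.89 CPM in F1 to F3 and 46.2, 60.6 and 60.4 in C1 to C3 (-5.69, SE 0.47, adjusted p = 0.000125). Wnt5a, a non-canonical Wnt ligand, was at 0.427, 0.771 and 0.239 against 11.01, 24.86 and 16.69 (-5.19, SE 0.80, adjusted p = 0.0049). Gas6, a ligand of TAM receptors, was at 13.04, 7.49 and 5.02 against 69.0, 58.3 and 45.0 (-2.75, SE 0.46, adjusted p = 0.0116; 0.0603 without F2). Grem1, a secreted antagonist of bone morphogenetic proteins, went the other way, at 11.2, 88.9 and 215.8 against 0.642, 0.61 and 0.679 (7.35, SE 1.07, adjusted p = 0.00382). The 3 Fadd-restored libraries of Grem1 spanned a wide range, all above the narrow one of the Casp8-restored libraries. The calls of Pdgfd, Wnt5a and Grem1 held without any 1 library. Without C1 the list gave 10 higher and 15 lower, and without F1, F2, F3, C2 or C3 it gave 1 higher and 3 to 8 lower.

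Cell adhesion genes gave 3 higher and 7 lower of 37 tested, with a median of 0.09, where all autosomal genes gave 2.98% and 3.37%. Cdh2, N-cadherin of mesenchymal cells, was at 52.4, 66.3 and 82.0 CPM in F1 to F3 and 170.7, 727.9 and 637.2 in C1 to C3 (-2.94, SE 0.44, adjusted p = 0.00412). Cadm1, an immunoglobulin-type adhesion molecule, was at 52.1, 115.4 and 85.7 against 0.0389, 0.0179 and 0 (11.92, SE 1.78, adjusted p = 0.00422). With 3 counts in the Casp8-restored group, the ratio was 4320 with a 95% counting interval of 1480 to 20900, which covers counting error only. Jup, plakoglobin of cell junctions, was at 99.8, 67.3 and 49.9 against 13.8, 23.1 and 18.9 (1.96, SE 0.37, adjusted p = 0.0132). Itga5, the integrin chain for fibronectin, was at 52.2, 52.3 and 42.0 against 68.4, 110.3 and 110.3 (-0.98, SE 0.19, adjusted p = 0.0154). The calls of Cdh2 and Cadm1 held without any 1 library, that of Jup was lost without F1 or C3 (adjusted p = 0.0568 and 0.0622) and that of Itga5 without F2, F3, C2 or C3 (0.0609 to 0.0807). The list gave 2 lower without F1, C2 or C3, 1 without F2, 3 without F3, 9 without C1 and 4 with the block on the restored pairs; it gave 6 higher with the block over 12 libraries and 1 without C3.

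The labelled cell type was checked on its markers. Vim, the mesenchymal filament vimentin, was at 1532 to 1638 CPM in F1 to F3 and 2072 to 2781 in C1 to C3, and Sparc at 770.4 to 1324 and 1310 to 1647. Thy1 had 0 counts in all 6 libraries, and Dcn was at most 0.673 CPM. Of 15 fibroblast markers tested, 4 were called lower in the Fadd-restored line and none higher (Prrx1, Col1a2, Postn and Twist1), and the summed level of the list was 4470 to 6630 CPM against 12600 to 17300. Without C1, 6 were lower. The number was 3 without F2, F3, C2 or C3 and with the block on the restored pairs, where the call of Twist1 was lost. Of 12 smooth muscle and pericyte markers, 5 were called lower, and 1 when any library but C1 was left out. Beside these counts and those of the fibroblast markers, 3.37% of all autosomal genes were lower and 2.98% higher. Smtn, smoothelin of contractile cells, was at 24.98, 26.9 and 28.9 CPM against 52.7, 61.1 and 59.6 (-1.10, SE 0.16, adjusted p = 0.00372). Acta2, smooth muscle actin, was at 5.57, 52.3 and 49.3 against 166.7, 2164 and 1280 (-5.08, SE 1.30, adjusted p = 0.0432). C1 lay far under C2 and C3 in Acta2, and the groups did not overlap. The call of Acta2 was lost without F1, F2, F3, C2 or C3 (adjusted p = 0.102 to 0.141), as were those of Synpo2, Cnn1 and Tagln (0.0741 to 0.181), and the summed level of the list was 125 to 154 CPM against 297 to 2990.

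Markers of other cell types were read at different levels. Those of chondrocytes, bone and fat, none of 12 tested called, summed to 68.7 to 86.7 CPM in F1 to F3 and 137 to 177 in C1 to C3, and 3 were called higher without C1. Of 13 leukocyte markers, 8 had under 10 counts in every restored library, and Adgre1, Cd3e and Tyrobp are among those with 0; Coro1a, an actin regulator of leukocytes, was called higher in the Fadd-restored line (2.00, SE 0.46, adjusted p = 0.0285; 0.0544 to 0.123 without F1, F2, F3, C2 or C3). The leukocyte sum was 11.1 to 17.7 CPM in F1 to F3 and 6.36 to 10.5 in C1 to C3. Of 11 endothelial markers 8 and of 16 epithelial markers 11 had under 10 counts in every restored library, with sums of 10.9 to 13.8 and 7.26 to 9.04 CPM (endothelial) and 6.34 to 35.2 and 3.53 to 5.25 CPM (epithelial). Of 3 endothelial markers tested, 1 was called lower in the Fadd-restored line and none higher, with a median of -1.02, opposite to the sums. None of the 3 was called without F1, F2, F3, C2 or C3. The part of these other cell types in the differences was not tested.

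Among imprinted genes 3 of 34 tested were called, all lower, beside 6.35% called and 3.37% lower over all autosomal genes, and 5 were lower without C1. Grb10, an adaptor that limits growth factor signalling, was at 0.939, 8.602 and 5.86 CPM in F1 to F3 and 412.3, 1123 and 1042 in C1 to C3 (-7.39, SE 1.00, adjusted p = 0.00284). Peg13, a non-coding RNA, was at 0.811, 1.42 and 0.933 against 3.33, 7.74 and 7.82 (-2.58, SE 0.47, adjusted p = 0.0107). Ndn, necdin, had 0 counts in F1 to F3 and 0.778, 18.5 and 9.28 CPM in C1 to C3 (adjusted p = 0.041, 0.0591 with the block on the restored pairs and 0.124 in limma-voom). Over the pooled counts of the group Ndn was at least 438-fold higher in the Casp8-restored line. This bound covers counting error only, and C1 lay far under C2 and C3. The calls of Grb10 and Peg13 held without any 1 library, and that of Ndn was lost without F1, F2, F3, C2 or C3 (0.0904 to 0.113).

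A few genes were read in one restored line alone, with a mean of 5 CPM or more there and at most 3 counts over the other line. There were 5 in the Fadd-restored line and 14 in the Casp8-restored line. Of the 14, 13 were also called lower in the Fadd line between the knockout groups, and 11 had at most 3 counts over the Fadd/Mlkl knockout group. Auts2, a regulator of neural development, had 0 counts in F1 to F3 and 12.1, 9.27 and 8.77 CPM in C1 to C3, at least 450-fold higher in the Casp8-restored line (adjusted p = 0.00373). Tnn, tenascin N, was at 0, 0 and 0.0217 against 18.1, 26.0 and 23.2 (-11.12, SE 1.79, adjusted p = 0.00656). Ptges, the prostaglandin E synthase, was at 13.96, 14.94 and 19.04 CPM in F1 to F3 and 0.0389, 0 and 0.0206 in C1 to C3 (9.50, SE 0.69, adjusted p = 5.61e-05). These 3 calls held without any 1 library. Khdrbs3, a splicing regulator, was at 0, 0 and 0.0217 against 3.21, 58.8 and 48.4 (-11.84, SE 1.92, adjusted p = 0.00674), with C1 far under C2 and C3. The calls of Tnn and Khdrbs3 were lost in limma-voom (adjusted p = 0.0823 and 0.165). Pi15 (at least 435-fold) and Ccdc85a (a ratio of 3130, counting interval 562 to 124000) were higher in the Casp8-restored line, with adjusted p = 0.0269 and 0.0396 and 0.0684 and 0.0528 with the block on the restored pairs. Both calls were lost without F1, F2, F3, C2 or C3 (0.0619 to 0.168), and that of Ccdc85a in limma-voom (0.273). Ccdc85a was at 0.856 CPM in C1 against 35.6 and 33.0 in C2 and C3.

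Of the 8 abundant genes named by rule, Col1a2, Acta2, Col12a1 and H2-K1 are described above. Of the others, Wdr6, a regulator of tRNA modification, was at 410.1, 324.8 and 237.2 CPM in F1 to F3 and 165.8, 161.2 and 147.2 in C1 to C3 (1.04, SE 0.20, adjusted p = 0.0132). Oxr1, a protein of oxidation resistance, was at 417.4, 316.5 and 428.3 against 117.1, 70.6 and 68.3 (2.18, SE 0.44, adjusted p = 0.0177). Myo10, a motor of filopodia, was at 337.9, 395.9 and 659.5 against 180.3, 159.1 and 181.7 (1.42, SE 0.37, adjusted p = 0.0447). Fat1, an atypical cadherin, was at 221.0, 307.3 and 429.8 against 571.7, 1268 and 1230 (-1.68, SE 0.43, adjusted p = 0.0425). None of the 4 overlapped between the lines. Their calls were lost without C2 or C3 (adjusted p = 0.0629 to 0.18), that of Wdr6 also without F2 (0.0539), that of Oxr1 without F1 (0.0559) or F3 (0.0536), those of Myo10 and Fat1 without F1, F2 or F3 (0.0571 to 0.136), and that of Myo10 without C1 (0.0558) and with the block on the restored pairs (0.0695).

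Further lists gave from 1 to 3 calls each, near the 6.35% of all autosomal genes. Of 45 genes of the cell cycle and of large T antigen targets 2 were higher and 1 lower. Cdkn2a, which encodes the INK4A and ARF tumour suppressors, was at 176.3, 153.5 and 162.3 CPM in F1 to F3 and 119.8, 76.6 and 85.6 in C1 to C3 (0.80, SE 0.18, adjusted p = 0.0256), while its neighbour Cdkn2b was at 25.7, 28.5 and 26.2 against 70.8, 52.1 and 50.8 (-1.11, SE 0.18, adjusted p = 0.00603). The call of Cdkn2b held without any 1 library, and that of Cdkn2a was lost without F1, F2, F3, C2 or C3 (0.0722 to 0.121). Of 29 genes of p53 and its targets 1 was called each way, of 31 of the integrated and endoplasmic reticulum stress responses 1 each way, of 31 of glutathione and oxidative stress 2 higher, and of 15 of the BCL2 family 1 lower. Xbp1, a factor of the unfolded protein response, was at 64.5, 54.8 and 33.4 CPM against 90.7, 140.1 and 134.2 (-1.26, SE 0.33, adjusted p = 0.0447; 0.0685 with the block on the restored pairs). Pmaip1, the BH3-only protein NOXA, was at 2.05, 2.89 and 3.76 against 2.96, 37.23 and 34.96 (-3.11, SE 0.78, adjusted p = 0.0396), where C1 lay among the Fadd-restored libraries. Both calls were lost without F1, F2, F3, C2 or C3 (0.0654 to 0.167), and that of Pmaip1 with the block on the restored pairs (0.0669). Of 24 chemokines and cytokines 1 was called each way: Ccl5 was higher, at 5.02, 8.12 and 12.5 CPM against 1.40, 1.04 and 1.85 (2.58, SE 0.60, adjusted p = 0.0313), and Tnfsf11, the ligand RANKL, was at 0 in F1 to F3 against 0.447, 1.20 and 0.70 (adjusted p = 0.014). Without C1 these lists gave 4 higher and 2 lower (cell cycle), 2 and 1 (p53), 2 and 1 (stress responses), 9 and 1 (oxidative stress), 1 and 1 (BCL2) and 6 and 1 (chemokines). Without F2, C2 or C3 they gave 1 lower each for cell cycle and chemokines and no other call. The call of Ccl5 was lost without F2, F3, C1, C2 or C3 (0.0534 to 0.139).

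Genes near the targeted loci were counted separately. Within 1000000 bases of Fadd 16 genes were tested and 3 were called lower in the Fadd-restored line, near Casp8 none of 27 was called, and near Mlkl 1 of 28 was called higher, where 3.37% of all autosomal genes were lower and 2.98% higher. The sources used here do not say how the alleles were made.

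Whole autosomes differed by small amounts, with chromosome 18 the farthest from 0. Its 454 tested genes had a median log2 difference of -0.38, 76.0% of them lay below 0, and 7 were called higher and 46 lower (11.7% called). Relative to the mean of the 6 libraries, the chromosome median was -0.222, -0.172 and -0.181 in F1 to F3 and 0.001, 0.327 and 0.273 in C1 to C3. The groups did not overlap, and C1 lay between the lines. An exact two-sided permutation test over the 6 libraries gave p = 0.1, the smallest it can give, and 0.211 adjusted over 19 autosomes. Chromosomes 3, 4, 5, 8, 11, 12, 15 and 16 gave the same p and also had no overlap, so this is not particular to chromosome 18. In 10 bins of 10 Mb along chromosome 18, the smallest with 4 genes, every median was below 0, from -0.544 to -0.226. The median of chromosome 18 was -0.30 between the knockout groups, and between the restored lines it stayed between -0.46 and -0.32 when any 1 library was left out. Chromosome 11 had the highest median, 0.23, with 56 genes called higher and 22 lower. Chromosome 15 had the largest share called, 12.2%, with 59 higher and 20 lower and a median of 0.08.

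**Figure D5:**
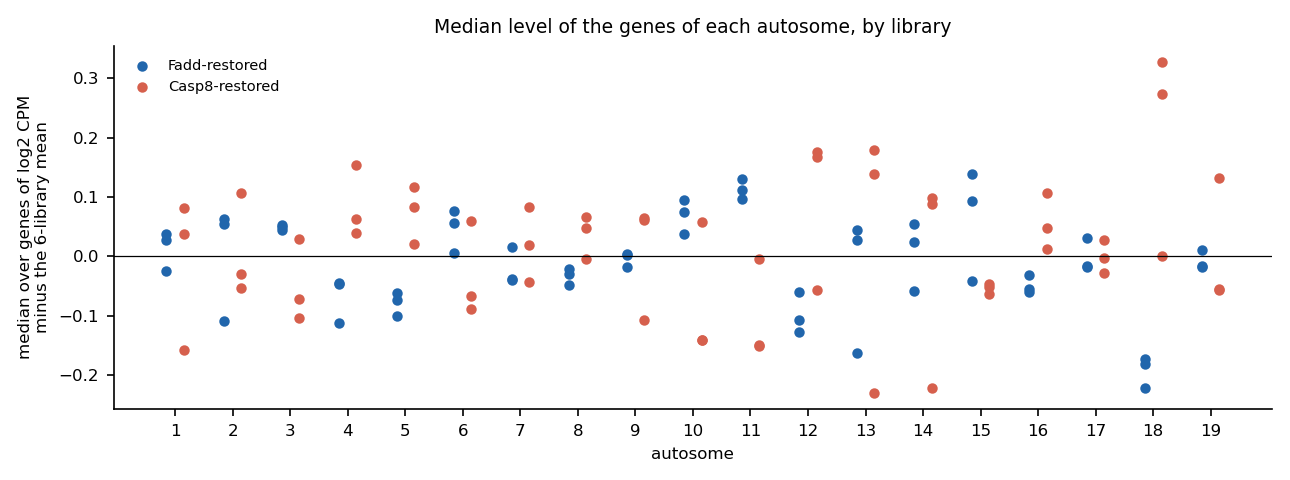
For each autosome, the median over its tested genes of log2 CPM minus the 6-library mean, in each restored library (blue Fadd-restored, red Casp8-restored). On chromosome 18 the Fadd-restored libraries lie at -0.222 to -0.172 and C2 and C3 at 0.327 and 0.273, with C1 at 0.001.

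Some differences between the restored lines were not those between the knockout lines. Hoxc11 was at 8.33, 6.59 and 10.6 CPM in Fk1 to Fk3 and 8.39, 6.14 and 6.44 in Ck1 to Ck3, so that of the 4 groups only the Fadd-restored one had 0 counts. Hoxa11 was at 24.1, 24.0 and 27.0 CPM in Fk1 to Fk3 and 22.6, 23.1 and 20.7 in Ck1 to Ck3, and the difference of the 2 contrasts was -3.79 (SE 0.31, adjusted p = 0.00021). Cadm1 was at 0.0351, 0.109 and 0.0438 CPM in Fk1 to Fk3 and 2.47, 0 and 0 in Ck1 to Ck3, with a difference of 15.59 (SE 2.27, adjusted p = 0.00692). Grem1 was at 0, 0.109 and 0.328 in Fk1 to Fk3 and 3.71, 5.38 and 5.15 in Ck1 to Ck3, with a difference of 12.43 (SE 1.496, adjusted p = 0.00255). In these 4 genes the Fadd-restored group stood apart from the other 3 groups. Col1a2 was lower in the Fadd line in both comparisons, but at 0.966, 2.06 and 0.635 CPM in Fk1 to Fk3 its distance from the Casp8 line was larger there, and the difference of the contrasts was 7.76 (SE 0.92, adjusted p = 0.00236). Gpx7, an oxidoreductase of the endoplasmic reticulum, did not pass the test between the restored lines (0.14, SE 0.63, adjusted p = 0.932), while it had 0 counts in Fk1 to Fk3 and 6.66, 7.75 and 9.37 CPM in Ck1 to Ck3. Negr1, a neuronal growth regulator, was lower in the Fadd-restored line (-4.43, SE 0.99, adjusted p = 0.0261; 0.0954 without F1 and 0.0927 without F2) and higher in the Fadd/Mlkl knockout group (2.905, adjusted p = 0.0439).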

How the data were processed

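Total RNA libraries made with a strand-specific kit were sequenced as read pairs, per the labels' protocols. The deposited expected counts per gene were made by the authors with RSEM after trimming (Trim Galore 0.5.0) and alignment with STAR 2.7.5a to mm10 with GENCODE M22, per the labels' protocols and the submitters' processing notes. Each table had 55573 gene rows, of which 55480 were matched to a GENCODE M21 annotation for chromosome and symbol, and 92 spike-in rows at 0, left out. Tables of retroviral reading frames were not used here. Values of some genes are not reported here.

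Expected counts were rounded, filtered with filterByExpr (minimum count 10), scaled by TMM and fitted with edgeR 4.0.16 (R 4.3.3) quasi-likelihood models with 4 group means over the 12 libraries, so that all groups share 1 estimate of the spread. P-values were adjusted by Benjamini and Hochberg's method over 16396 genes. The script was tested on simulated data. Genes were named by rule: the genes Fadd, Casp8, Mlkl, Zbp1, Ripk1 and Ripk3; among called autosomal protein-coding genes, the 8 largest differences each way with at least 5 CPM and no overlap, and the 4 most abundant each way with at least a 2-fold difference and no overlap; up to 4 called members of each of 32 lists by p; and the 3 highest and 3 lowest called differences between the contrasts among genes of that kind whose mean in some group reached 5 CPM. The members and lists were chosen with earlier results of these data known.

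Replicate numbers were checked for pairing: deviations of same-numbered libraries correlated at 0.3168, 0.1606 and 0.2426 between the restored lines and at -0.2522, 0.0711 and -0.3708 between the knockout groups. Differently numbered libraries ranged from -0.2987 to 0.2453 between the restored lines, with F3 and C2 at 0.2453. Between the knockout groups they ranged from -0.0939 to 0.337. The block on the restored pairs thus comes from the data and not from the labels. These values do not settle whether the numbers mark pairs. Alternatives were DESeq2 1.42.0, limma-voom (limma 3.58.1), other scalings and filters, the replicate block and leaving out each library. Intervals and floors (3 counts over a group) are for counting error only.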

Additional observations from a re-analysis of the deposited data

Results flagged for a closer look

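The difference between the restored lines was not the same as that between the knockout groups, by edgeR's test of the difference itself, for 115 autosomal genes with a higher and 9 with a lower contrast in the restored libraries. The 6 named among them by rule had differences of 15.59 for Cadm1 (adjusted p = 0.00692), 12.43 for Grem1 (0.00255), 11.70 for Gpx7 (0.00418), -12.13 for Hoxc11 (4.83e-05), -7.34 for Negr1 (0.0214) and -3.79 for Hoxa11 (0.00021). In Gpx7 and Hoxc11 a group with 0 counts enters the contrast, so the fitted size depends on the prior count and is no bound.

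Reads of 4 Y-linked genes, which lie outside the autosomal comparison, were found in the Casp8-restored libraries and not in the Fadd-restored ones. The summed level was 130.9 CPM in C1, 286.1 in C2 and 265.7 in C3.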

How the results depend on the processing

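Between the restored lines the higher and lower counts were 971 and 970 in DESeq2, 749 and 738 with the replicate block over 12 libraries, and 1453 and 1570 without both replicate 1 libraries of the Casp8 line, an alternative added after seeing the data, as was the block on the restored pairs. With 1 library left out they ranged from 108 to 1006 and from 163 to 1175. Between the knockout groups they were 994 and 1629 in DESeq2, 1129 and 2025 without both libraries, and 176 to 759 and 600 to 1675 with 1 left out. For the difference of the contrasts they were 338 and 39, 301 and 57, and 79 to 205 and 6 to 29. With 1 library left out, called members ranged from 0 to 8 (Hoxb, higher), 5 to 19 and 6 to 17 (positional regulators, higher and lower), 0 to 2 and 5 to 13 (matrix), 2 to 28 (type I interferon) and 4 to 21 (antigen presentation). Matrix members were 4 higher and 16 lower in DESeq2, 4 lower in limma-voom and 1 higher with the block on the restored pairs. Interferon members were 5 in limma-voom, 14 with the block over 12 libraries and 7 with that on the pairs, and antigen presentation members 11 in limma-voom. At 1 CPM and 10 counts, 38 and 55 genes were read in the Fadd-restored or Casp8-restored line alone. Ripk1, not called, turned to 0.003 (DESeq2), 0.005 (RLE), 0.047 (upper quartile), 0.001 (1 CPM filter), 0.029 (6 libraries alone) and -0.14 to 0.054 with 1 library left out. Gpx7, not called, turned to -0.107 (limma-voom), -0.038 (block on the pairs), -0.172 (without both libraries) and -0.636 to 0.669. Of 94 named genes, 91 kept direction and side of the threshold in DESeq2, 75 in limma-voom, 92 with the block over 12 libraries, 75 with that on the pairs, and 42 without C2. The causes were not tested.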
